A study of Mus musculus with 4 samples.

Results

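The telomere-proximal 2 Mb of the mouse autosomes were taken as the 10 kb windows in the last 2 Mb of each of the 19 autosomes, counted back from the highest CpG position listed for that chromosome. A window was kept when it held at least 10 CpGs with 1 or more reads in all 4 libraries. Of 3800 possible windows 3763 were kept, out of 252641 such windows on the autosomes and X. The 14971 windows lying 2 to 10 Mb from the same ends served as the neighbouring region.

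The study measured CpG methylation by whole-genome bisulfite sequencing in mouse embryonic stem cells homozygous for a loxP-flanked Ogt allele (Ogt fl/fl), with 2 libraries in each of 2 groups. Ogt iKO cells had been kept with 4-hydroxytamoxifen (4-OHT) for 6 days to induce loss of Ogt, and control cells of the same genotype had not received the drug. All cells grew on mitotically inactivated embryonic fibroblasts with LIF and serum replacement, and live stem cells were separated from these feeders by sorting. The treated cells alone were also selected for YFP, so the drug, the YFP selection and the loss of Ogt cannot be told apart as sources of a difference. The labels do not say whether the 2 libraries of a group came from separate cultures, so the spread given here may be technical. The cell type could not be checked against expression markers, since only methylation was measured.

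Ogt encodes O-GlcNAc transferase, the enzyme that places a single sugar on serines and threonines of many nuclear proteins, and it binds TET dioxygenases. TET enzymes oxidise 5-methylcytosine to 5-hydroxymethylcytosine and further products, a route to loss of methylation, while DNMT enzymes copy and place the mark. Chromosome ends carry the telomere, an array of TTAGGG repeats bound by shelterin, and the flanking subtelomeric DNA in mouse is normally rich in methylated CpGs, a state linked to limited telomere recombination. Mouse autosomes have the centromere close to one tip, so the ends studied here are the distal ones. The telomere repeats themselves were not analysed here. Bisulfite conversion does not separate 5-methylcytosine from 5-hydroxymethylcytosine, so a level is the share of reads carrying either.

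Promoters of 4 genes lying in the last 2 Mb are shown as RefSeq gives them for GRCm38.p6, each being the 250 bases before the gene's start, read 5′ to 3′ on the gene's strand, with CpG dinucleotides in capitals. Hmga1b was the single gene end there that passed the test, Rab11fip2 and Fgf4 are CpG-dense promoters whose outer flank had lower levels in both iKO libraries, and Cxcr6 is a CpG-poor, methylated promoter, shown because it had the largest decrease of the chemokine receptors. The stretches are chr11:120762544-120762793 on the plus strand for Hmga1b, chr19:59943655-59943904 on the minus strand for Rab11fip2, chr7:144861136-144861385 on the plus strand for Fgf4 and chr9:123806227-123806476 on the plus strand for Cxcr6.
Hmga1b: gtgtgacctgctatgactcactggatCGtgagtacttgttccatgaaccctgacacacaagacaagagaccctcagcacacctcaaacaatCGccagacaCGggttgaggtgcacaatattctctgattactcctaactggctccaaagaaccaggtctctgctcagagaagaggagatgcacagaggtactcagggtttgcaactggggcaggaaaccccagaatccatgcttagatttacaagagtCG
Rab11fip2: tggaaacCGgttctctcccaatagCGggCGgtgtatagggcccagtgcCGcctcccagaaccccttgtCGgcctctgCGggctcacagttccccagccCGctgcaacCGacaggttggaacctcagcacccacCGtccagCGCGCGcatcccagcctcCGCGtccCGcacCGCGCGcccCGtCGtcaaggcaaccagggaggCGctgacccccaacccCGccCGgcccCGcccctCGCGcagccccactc
Fgf4: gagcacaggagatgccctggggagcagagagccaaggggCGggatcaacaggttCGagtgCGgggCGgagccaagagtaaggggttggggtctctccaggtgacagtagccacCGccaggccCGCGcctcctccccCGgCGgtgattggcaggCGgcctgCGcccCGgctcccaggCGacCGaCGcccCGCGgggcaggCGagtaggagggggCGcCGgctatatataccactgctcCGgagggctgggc
Cxcr6: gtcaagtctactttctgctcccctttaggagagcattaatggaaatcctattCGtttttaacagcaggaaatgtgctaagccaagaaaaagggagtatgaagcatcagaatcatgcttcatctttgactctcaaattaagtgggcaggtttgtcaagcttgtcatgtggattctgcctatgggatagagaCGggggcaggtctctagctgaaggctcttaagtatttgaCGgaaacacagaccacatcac

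Pooled over the autosomes, every library was less methylated in the last 2 Mb than in the 2 to 10 Mb next to it. By control mean this held on 11 of 19 autosomes, and the last 100 kb lay above the 2 to 10 Mb in each library. The Ogt iKO libraries were less methylated than the controls in both regions by nearly the same amount. In the last 2 Mb, pooled over all reads, iKO replicates 1 and 2 had methylation levels of 63.4% and 61.1%, and control replicates 1 and 2 had 68.0% and 71.6%. The groups did not overlap, and the controls lay farther from each other than the iKO libraries did. The means were 62.2% ± 1.64 (SD, n = 2) in iKO and 69.8% ± 2.58 (SD, n = 2) in control cells, a difference of -7.58 percentage points. That is larger than the pooled SD between replicates of 2.16, with an exact permutation p of 0.33 (two-sided), the smallest that 2 against 2 libraries can give. These values rest on 231508 CpGs and on 805240 to 986405 reads per library, or 3.48 to 4.26 reads per CpG.

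In the 2 to 10 Mb next to the ends the levels were 65.2% and 62.8% in iKO and 70.3% and 73.6% in control libraries, a difference of -8.01 points. All autosomal windows outside the last 2 Mb differed by -7.77 points, and the last 2 Mb of X by -6.40. The level of the last 2 Mb minus that of the 2 to 10 Mb was -1.77 and -1.72 points for iKO and -2.34 and -2.00 points for control libraries. Both iKO gaps were narrower than both control gaps. The gap differed between the groups by 0.427 points (pooled SD 0.169; two-sided exact permutation p = 0.33), and by 0.260 points without control replicate 1. It was 0.237 points without chromosome 15 (permutation p = 0.667) and 0.0752 points when every window counted equally (permutation p = 1). It was larger with the last 1 Mb as the end (0.658 points). With at least 5 reads per CpG and 5 CpGs per window it was 4.01 points, or 2.05 when very deep CpGs were also removed. The gap difference kept its sign but was smaller against all other autosomal windows, at 0.192 points. It was 0.110 points for the last 4 Mb against the 4 to 10 Mb, where the groups overlapped (permutation p = 1).

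The ends held fewer CpGs and more genes than their surroundings. A window had a median of 52 tested CpGs in the last 2 Mb and 85 in the 2 to 10 Mb, and 18 of 19 chromosomes were sparser at the end. RefSeq places 13.4 protein-coding genes per Mb in the last 2 Mb and 9.85 per Mb in the neighbouring 8 Mb, while genes of any kind covered 50.6% and 56.3% of the bases. The median promoter of 300 bases (250 before to 50 after the start) carried 10 CpGs at the ends, where 569 promoters were listed, and 7 among all 25748 autosomal ones. The motif TTAGGG, searched on both strands, was found in 9.67% of these end promoters and in 10.5% of all of them. Tandem copies of the motif were in 0 promoters at the ends and in 3 of all autosomal promoters.

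The densest windows had the lowest methylation, while the difference between the groups was of like size in all 5 classes of CpG number. In the sparsest class of windows (10 to 37 CpGs, the lowest of 5 classes of like size over all autosomal windows) the last 2 Mb stood at 70.1% and 67.1% in iKO and 73.7% and 79.3% in control libraries. In the densest class (95 to 439 CpGs) they stood at 49.3% and 47.8% in iKO and 54.2% and 56.5% in control libraries. Both classes were lower in both iKO libraries, by -7.89 points on average in the sparsest and -6.83 in the densest, with -7.99 to -8.41 in the 3 classes between. The step from the sparsest to the densest class was 20.8 and 19.4 points in iKO and 19.5 and 22.8 in control libraries, with overlap between the groups (difference -1.06, pooled SD 1.78, two-sided exact permutation p = 0.667). Without control replicate 2 the sign of that difference turned, to 0.566.

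The densest windows were where the ends stood apart from their neighbours. At 2 to 10 Mb the densest class had 60.1% and 57.8% methylation in iKO and 65.7% and 68.7% in control libraries, above the same class in the last 2 Mb in each library. In the other 4 classes the ends lay only -4.68 to -1.12 points from their neighbours, by group mean. In the densest class they lay -10.8 and -10.0 points from them in iKO and -11.6 and -12.2 points in control libraries. This gap of the densest class was narrower in both iKO libraries (difference 1.44, pooled SD 0.485, exact permutation p = 0.33). For windows of 38 to 51 and of 52 to 69 CpGs the order was the opposite one, with differences of -0.592 and -0.367 points, and in the other 2 classes the groups overlapped. With the neighbouring windows weighted to the CpG numbers of the ends, the last 2 Mb lay -5.20 and -5.06 points from them in iKO and -5.26 and -5.28 in control libraries. The groups then differed by 0.144 points (pooled SD 0.0691, exact permutation p = 0.33), by 0.0751 without iKO replicate 2, and by -0.00538 without chromosome 15 (exact permutation p = 1).

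**Figure D1:**
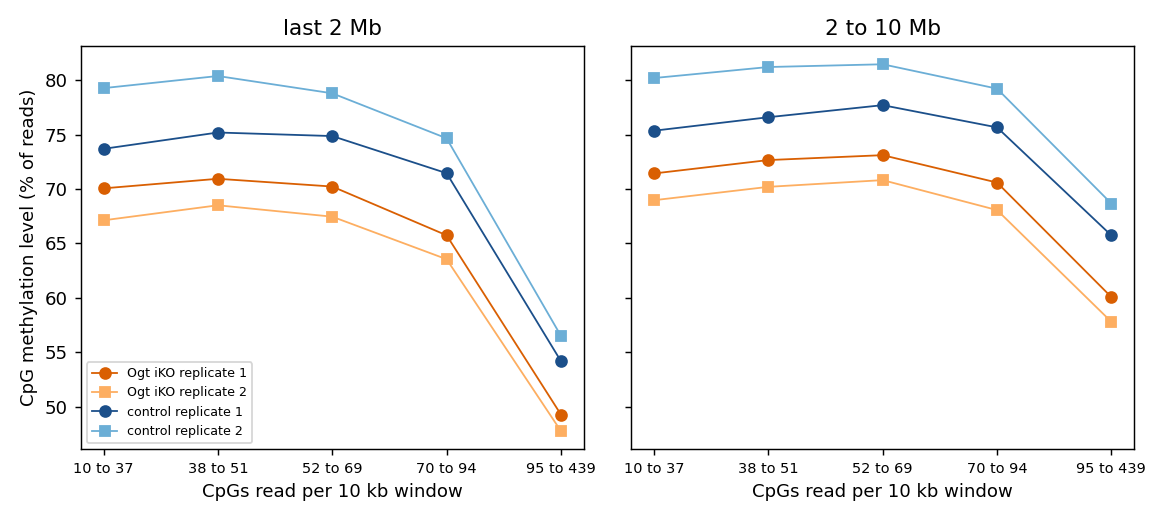
Pooled CpG methylation level (% of reads) in each of the 4 libraries against the number of CpGs read per 10 kb window, in 5 classes, for the last 2 Mb (left) and the 2 to 10 Mb (right) of the autosomes. Each point is 1 library; the iKO points lie below the control points in every class on both sides, and the densest class falls to 47.8 to 56.5% in the last 2 Mb and 57.8 to 68.7% in the 2 to 10 Mb.

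Methylation was lower in iKO cells at every distance from the end. In the last 100 kb the level was 67.0% and 65.3% in iKO and 71.3% and 76.2% in control libraries, a difference of -7.57 points. The groups did not overlap there, and the last 100 kb was the most methylated of the 6 distance classes in each library. The differences from 100 to 250 kb, 250 to 500 kb and 500 kb to 1 Mb were each -7.34 points, and those from 1 to 1.5 Mb and 1.5 to 2 Mb were -7.70 and -7.86 points. In 100 kb steps both iKO libraries lay below both controls in 20 of 20 bins of the last 2 Mb, with differences from -8.53 to -6.45 points. The other 80 bins out to 10 Mb ran from -9.26 to -6.93 points.

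The last 500 kb exceeded the stretch from 1.5 to 2 Mb by 2.26 and 2.24 points in iKO and by 1.44 and 2.09 points in control libraries. The rise was higher in both iKO libraries by 0.481 points on average (pooled SD 0.323, two-sided exact permutation p = 0.33). It depended on the control library used, at 0.158 points without control replicate 1 and 0.804 without control replicate 2.

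**Figure D2:**
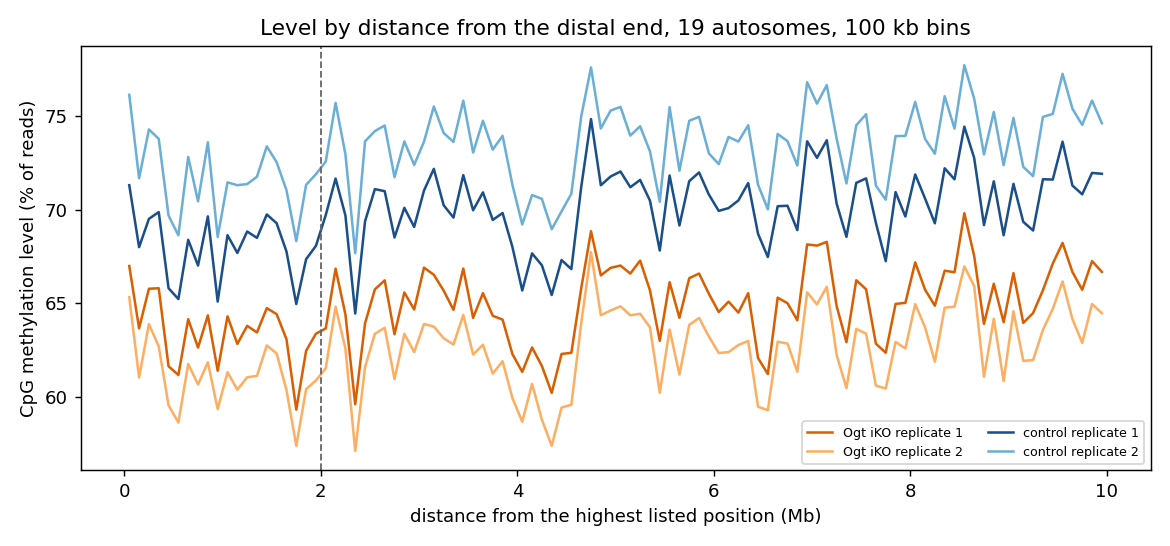
Pooled CpG methylation level (% of reads) over the 19 autosomes in 100 kb bins against the distance from the highest listed position (Mb), 1 line per library, with a dashed line at 2 Mb. Both iKO lines lie below both control lines in all 100 bins.

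The windows nearest the highest listed CpG position, called terminal below, were lower in iKO cells on nearly every autosome, as were most windows elsewhere. The window nearest the end was tested on all 19 chromosomes, and both iKO libraries lay below both controls on 18 of them, where 71.6% of all 252641 windows did. On chromosome 11 (chr11:121972250-121982249, in no gene, 113 CpGs) the level was 60.9% and 60.5% in iKO and 78.5% and 75.4% in control libraries, the largest terminal difference at -16.3 points. On chromosome 12 the terminal window overlaps Tmem196, a transmembrane protein gene, and stood at 65.9% and 74.1% in iKO and 78.2% and 87.7% in control libraries. On chromosome 13 it overlaps Tcstv3, a gene of the set switched on in 2-cell embryos, and stood at 67.4% and 69.4% in iKO and 73.7% and 77.2% in control libraries. The groups were apart in these 3 windows, most clearly on chromosome 11. The smallest difference was that of chromosome 6, with 85.4% and 82.8% in iKO and 85.8% and 85.8% in control libraries (-1.75 points). Chromosome 8 was the exception, with 76.0% and 67.5% in iKO and 74.2% and 81.3% in control libraries, which overlap. Each terminal window held 104 to 516 reads per library, so single values carry sampling error of several points.

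On all 19 autosomes both iKO libraries were below both controls over the last 2 Mb. This is also the background, since it held for 99.9% of the 1200 blocks of 2 Mb along the autosomes. The differences ran from -9.22 points on chromosome 5 to -5.90 points on chromosome 15, with a median of -7.82 and an SD over chromosomes of 0.750. In the 2 to 10 Mb the range was narrower, -8.63 to -7.30 points (SD 0.382), over regions 4 times as long. Of the 19 ends, 16 lay within -8.87 and -6.76 points, the 5th and 95th percentiles of all blocks. The iKO mean was 87.6% to 91.1% of the control mean at each end. On 19 of 19 ends control replicate 2 was above control replicate 1 and iKO replicate 1 above iKO replicate 2, by amounts that varied between chromosomes.

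The 3 largest differences were at the ends of chromosomes 5, 14 and 6. Chromosome 5, whose end carries Brca2 and Rfc3, stood at 66.5% and 64.3% in iKO and 72.7% and 76.6% in control libraries. Chromosome 14, with Fgf14 and Nalcn, stood at 68.1% and 65.8% in iKO and 73.2% and 78.1% in control libraries, a difference of -8.68 points. Chromosome 6 stood at 66.1% and 63.7% in iKO and 71.3% and 75.1% in control libraries, a difference of -8.33 points. In all 3 the iKO libraries were the low ones, without overlap.

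The 3 smallest differences were at the ends of chromosomes 15, 13 and 1. Chromosome 15 was the least methylated end in all libraries, with 49.0% and 47.8% in iKO and 53.3% and 55.3% in control libraries. Chromosome 13 stood at 67.1% and 64.3% in iKO and 71.1% and 73.8% in control libraries, a difference of -6.74 points. Chromosome 1 stood at 71.4% and 68.4% in iKO and 74.3% and 79.2% in control libraries, a difference of -6.82 points. None of these overlapped either, and of these 3 ends chromosome 1 had the closest libraries across groups.

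**Figure D3:**
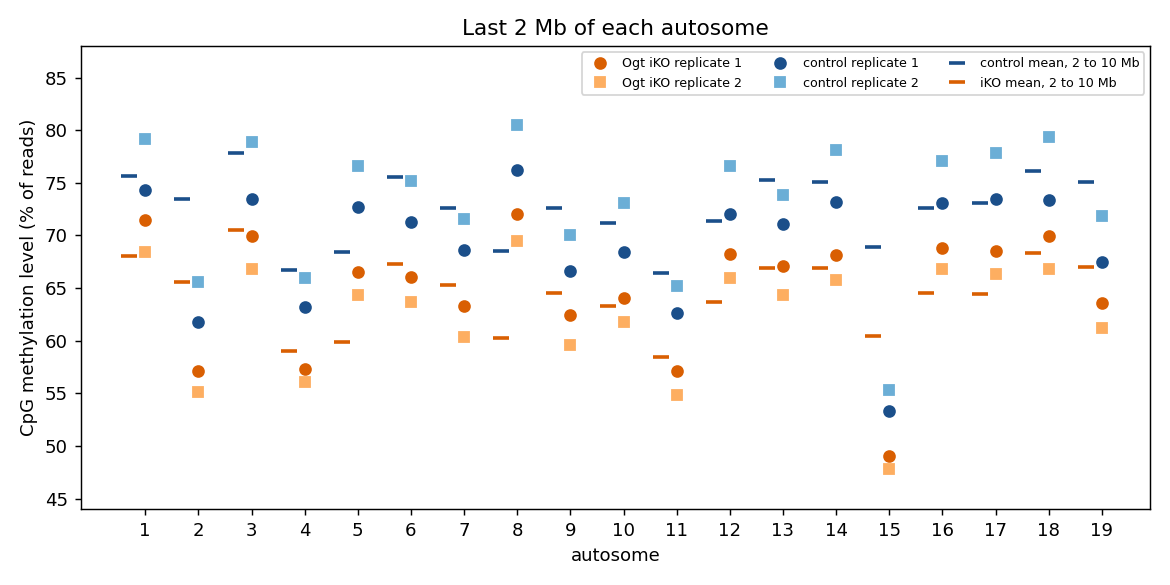
Pooled CpG methylation level (% of reads) of the last 2 Mb of each autosome, 1 point per library, with dashes to the left for the group means of the 2 to 10 Mb next to it. The iKO points lie below the control points on every autosome, and chromosome 15 is lowest, at 47.8 to 55.3%, with its 2 to 10 Mb means well above.

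Against its own neighbouring 8 Mb, the end was relatively higher in both iKO libraries on 7 chromosomes (2, 8, 9, 13, 15, 16 and 19), where 23.0% of 1135 blocks along the autosomes were, and relatively lower in both on 2 (5 and 7), where again 23.0% of blocks were. On the other 10 the groups overlapped. Chromosome 15 had the largest such value, with end minus neighbour at -12.6 and -11.4 points in iKO and -14.1 and -15.1 points in control libraries. Chromosome 13 came next, with -1.10 and -1.24 points in iKO and -2.25 and -3.42 points in control libraries. On chromosome 7 the order was reversed, with -3.28 and -3.70 points in iKO and -2.33 and -2.74 points in control libraries. A count over 19 ends is a description, since the ends share their libraries.

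**Figure D4:**
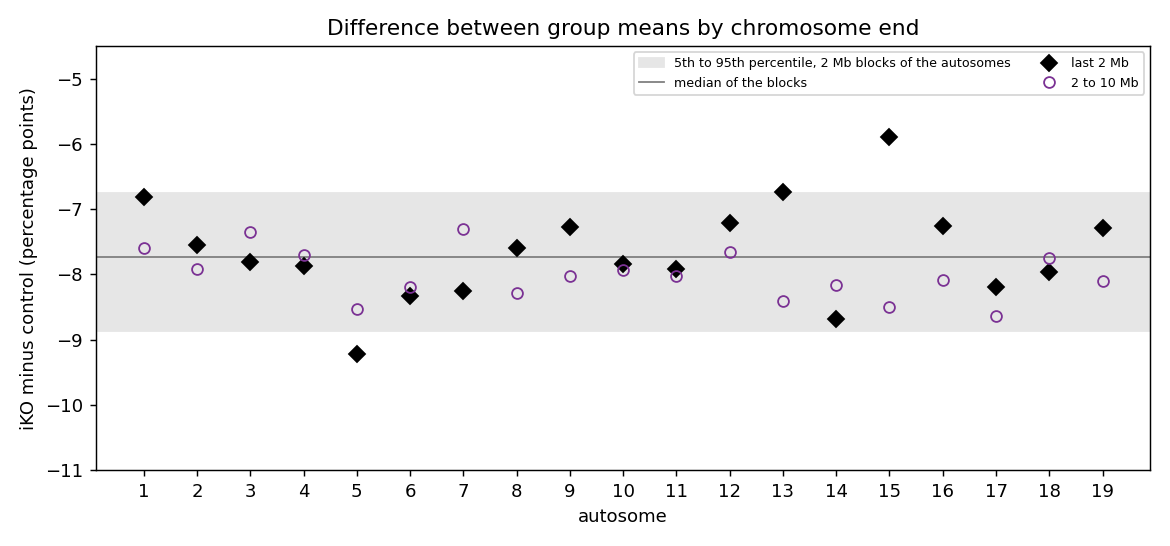
Difference between group means (iKO minus control, percentage points, n = 2 libraries in each group) for the last 2 Mb (diamonds) and the 2 to 10 Mb (circles) of each autosome, beside the median and the 5th to 95th percentile of all 2 Mb blocks. All points are below 0, and chromosomes 5, 13 and 15 lie outside the band at -9.22, -6.74 and -5.90 points.

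The end of chromosome 15 holds the Hoxc cluster, homeobox genes that give positional identity to embryonic tissue and are kept silent in stem cells by Polycomb proteins. Over the 13 windows that the cluster overlaps (chr15:102921131-103036856, 2047 CpGs) methylation was 20.5% and 19.7% in iKO and 18.8% and 16.9% in control libraries. Here the iKO libraries were the higher ones, by 2.19 points on average (pooled SD 1.01, two-sided exact permutation p = 0.33). The other 182 windows of this end stood at 52.4% and 51.0% in iKO and 57.5% and 60.1% in control libraries, a difference of -7.09 points. This split of the chromosome was chosen after the values were seen.

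Windows with little methylation showed little difference in points. How far a low level limits a fall was not tested. Of the 3763 windows, 29 were under 20% methylated on average in control cells, on 11 chromosomes, with 11 of them on chromosome 15 and 7 of these over Hoxc genes. Their median difference was 0.120 points, with a range from -6.06 to 7.17. Both iKO libraries were below both controls in 8 of them (background over all windows 71.6%) and above in 7 (background 0.530%). By the test used for single windows 0 were called (background 17.1%). A call also requires a minimum difference in points, given below, and several of these windows had control levels smaller than that minimum. Those could not have been called lower, while the others, with control levels above the minimum, could have been. The 0 calls and the background share are therefore not at like level. These windows were picked by their control level, which can by itself move the difference upward, and that part was not tested.

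The test of single windows was a quasi-binomial model of their methylated and unmethylated reads, with a limma-moderated dispersion. A window was called at a Benjamini-Hochberg adjusted p under 0.05, adjusted over all 252641 windows, and a difference of at least 10 points. Of the 3763 windows of the last 2 Mb, 633 were called, all lower in iKO, which is 16.8% against a background of 17.1% over all windows (0.00158% were called higher). Both iKO libraries lay below both controls in 70.7% of them (background 71.6%) and above in 29, or 0.771% (background 0.530%). By group mean 95.7% of them were lower in iKO (background 96.4%). The median window difference was -8.01 points in the last 2 Mb, -7.95 in the 2 to 10 Mb and -7.78 over all windows. The count was 295 (7.84%) without iKO replicate 1, where 9.03% of all windows were called, and 47 (1.25%) without iKO replicate 2, where 1.499% were. It was 1082 (28.8%) without control replicate 1, where 29.1% of all windows were called, and 137 (3.64%, 1 of them higher in iKO) without control replicate 2, where 4.06% were. With edgeR 507 windows were called (13.5%, against 13.9% of all windows). With limma on logit levels 0 were, here and over all windows, and 32.9% of the end windows and 33.5% of all windows had an unadjusted p under 0.05.

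In the 2 to 10 Mb 24.1% of windows were called, and the share differed by CpG number in both regions. From the sparsest to the densest class, 4.09%, 13.6%, 20.6%, 29.95% and 25.7% of windows were called in the last 2 Mb. The matching shares were 4.65%, 7.57%, 17.2%, 26.6% and 33.9% in the 2 to 10 Mb. The ends had the higher share in the 3 middle classes and the lower share in the sparsest and the densest one; their share was highest in the class below the densest. Over the same classes the median window difference in the last 2 Mb was -7.92, -8.01, -7.98, -8.45 and -7.79 points. Windows with more CpGs hold more reads, and a like difference is easier to call with more reads. The median window held 52 CpGs in the last 2 Mb and 85 in the 2 to 10 Mb. These shares were not compared at equal read number and were not tested against each other. By chromosome the share was highest on chromosomes 5 (67 of 200 windows) and 11 (65 of 200) and lowest on chromosomes 18 (12 of 200) and 3 (15 of 200). Pooled over these ends, in that order, the difference was -9.22, -7.92, -7.96 and -7.82 points. The median window there held 78.5, 93.5, 34 and 32 CpGs, so a lower share need not mean a smaller difference. The neighbouring 8 Mb also differed by chromosome, with 35.3% and 31.0% called on chromosomes 5 and 11 and 15.7% and 14.8% on chromosomes 18 and 3.

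The 5 largest decreases among called windows with at least 30 CpGs are given in turn, and no window of the last 2 Mb was called higher. In the window chr14:124411846-124421845, which lies inside Fgf14, the gene of an intracellular FGF that modulates sodium channels, the level was 30.8% and 34.4% in iKO and 64.5% and 61.2% in control libraries. The groups lay far apart, with a difference of -30.3 points and an adjusted p of 0.00145 (limma-moderated model), which rose to 0.0526 without iKO replicate 1. In the window chr4:155157403-155167402, inside Ski, a corepressor of SMAD signalling, the level was 38.3% and 39.1% in iKO and 62.9% and 66.2% in control libraries. Replicates were close here and the difference was -25.9 points (adjusted p 4.05e-09, limma-moderated model, 127 CpGs). That difference ran from -27.5 to -24.2 points with 1 library left out.

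In the window chr6:149326368-149336367, which overlaps Resf1, a gene for a factor that silences endogenous retroviruses, the level was 48.8% and 53.9% in iKO and 75.2% and 76.4% in control libraries. The difference was -24.4 points (adjusted p 3.14e-05, limma-moderated model) and -19.3 points over the CpGs with at least 5 reads in every library (adjusted p 0.271). In the window chr11:121912250-121922249, inside the predicted gene Gm9631 and 60 kb from the last window of the chromosome, the level was 57.0% and 48.1% in iKO and 74.5% and 76.4% in control libraries. Its difference of -22.8 points (adjusted p 0.00105, limma-moderated model) fell to -18.4 without iKO replicate 2 (adjusted p 0.114). In the window chr10:128602903-128612902, in no gene and next to Erbb3, a receptor of the EGF receptor family, the level was 51.1% and 44.3% in iKO and 67.1% and 72.5% in control libraries. The difference was -22.1 points (adjusted p 4.52e-05, limma-moderated model). Of the windows around each, in the order given, 1 of 10, 6 of 10, 4 of 10, 6 of 10 and 2 of 6 were called, where 17.1% of all windows were. In all 5 windows the iKO libraries were below the controls, and with limma on logit levels each had an adjusted p of 0.108.

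The windows with the largest increase did not pass both criteria. The highest, chr13:120040924-120050923 with 16 CpGs and 32 to 69 reads per library, stood at 52.2% and 52.9% in iKO and 45.0% and 37.5% in control libraries. The next, chr1:194021431-194031430 with 38 CpGs, stood at 84.1% and 87.9% in iKO and 69.9% and 83.7% in control libraries (adjusted p 0.182, limma-moderated model), a difference of 9.16 points that was 2.26 without control replicate 1 and 16.1 without control replicate 2. The third, chr13:120020924-120030923 with 185 CpGs, stood at 24.9% and 19.8% in iKO and 13.9% and 16.6% in control libraries. The iKO libraries were the higher ones in all 3. The third had an adjusted p of 0.0164 (limma-moderated model), with a difference of 7.17 points, below the 10 required. Without iKO replicate 1 its difference was 4.63 points (adjusted p 0.249, limma-moderated model), and with limma on logit levels its adjusted p was 0.160. All 3 were chosen after their values were seen.

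A few windows of the ends were read far more deeply than the rest. The median was 3.91 reads per CpG and library, and 4 windows exceeded 3 times that value, 3 next to each other on chromosome 13 and 1 on chromosome 9. The window on chromosome 9 (chr9:123454872-123464871) stood at 24.7% and 15.5% in iKO and 22.9% and 19.7% in control libraries. The groups overlapped there, 0 of the 4 were called, and their median difference was -1.46 points. Among CpGs with at least 5 reads in every library, 280 windows remained and the 6 with most reads held 36.4% of them. The difference of the last 2 Mb was then -4.62 points, and -6.60 points when CpGs over 5 times a library's median depth were also removed.

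Gene ends in the last 2 Mb mostly had low methylation and small differences. Of 504 protein-coding genes whose start, or CpG-denser end where RefSeq gave no promoter, lay there, 471 had at least 5 tested CpGs from 1000 bases upstream to 500 downstream. Their median difference was -2.20 points, against -2.16 for all 19873 gene ends tested. By control level the median was -0.667 points for the 279 under 20% and -9.75 points for the 119 over 60%. Both iKO libraries lay below both controls at 30.8% of them (background 34.1%) and above at 6.79% (background 6.58%). By group mean 336 were lower in iKO (background 71.5%). Of the 471, 1 was called, lower in iKO, against a background of 0.201% (0.196% lower and 0.00503% higher).

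That gene was Hmga1b, of the HMGA1 family of architectural proteins that bind AT-rich DNA, at chr11:120761794-120763293. It stood at 31.9% and 36.0% in iKO and 66.2% and 75.7% in control libraries over 25 CpGs, with 65 to 75 reads per library. The groups were far apart, with a difference of -37.0 points (adjusted p 0.0286, limma-moderated model). The call was lost with edgeR (adjusted p 0.204), with limma on logit levels (0.574), and without iKO replicate 1 (0.415), iKO replicate 2 (0.401) or control replicate 2 (0.255). A near copy of the gene exists elsewhere in the genome, and how the aligner divided reads between them was not tested. The 250 bases shown above, with 4 CpGs of which 3 were read in all libraries, stood at 33.3% and 26.7% in iKO and 66.7% and 85.7% in control libraries, from 3 to 15 reads summed over CpGs.

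The CpG-dense promoters of Rab11fip2 and Fgf4 were at 0% just before the start and lower in iKO farther out, although neither promoter as a whole passed the test, a choice and a split made after the values were seen. Rab11fip2 encodes an effector of Rab11 in endosome recycling. From 1000 to 251 bases before its start it stood at 20.5% and 13.04% in iKO and 60.9% and 45.9% in control libraries over 10 CpGs. In the 250 bases printed, over the 14 of 26 CpGs read in every library, all 4 libraries were at 0%. Control replicate 1 and iKO replicate 2 had 1 read at each of these 14 CpGs, so the 0% of each may rest on a single fragment. No upper limit is given. Over its whole promoter Rab11fip2 stood at 6.96% and 6.98% in iKO and 32.6% and 27.9% in control libraries, without overlap (adjusted p 0.0897, limma-moderated model). Fgf4 encodes the FGF that embryonic stem cells make themselves and that drives their exit from self-renewal. From 1000 to 251 bases before its start it stood at 4.65% and 0% in iKO and 34.2% and 25.7% in control libraries over 12 CpGs. Both flanks were lower in both iKO libraries. The bases printed for Fgf4, over the 14 of 21 CpGs read in every library, were at 0% in all 4 libraries. They held 23 to 32 reads summed over CpGs, at 1 to 4 per CpG, which may again come from few fragments. Over the whole promoter Fgf4 stood at 1.56% and 0% in iKO and 11.3% and 7.44% in control libraries and did not pass the test (adjusted p 0.126, limma-moderated model).

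The other genes of the region are described by lists, and 0 genes of any list were called, where 0.201% of all gene ends were. The counts are to be read against all 19873 gene ends, of which 34.1% lay lower in both iKO libraries and 6.58% higher, with a median of -2.16 points. Of 6 FGF and cyclin genes (Fgf3, Fgf4, Fgf10, Fgf14, Fgf15 and Ccnd1), 2 were lower in both iKO libraries, 1 was higher and 3 overlapped, near the background shares, with a median difference of -1.94 points. Ccnd1, the cyclin D1 gene, was between 0% and 0.526% in all libraries. Of 9 tested genes at the distal imprinted cluster of chromosome 7, 6 were lower in both iKO libraries, 1 was higher (Tnfrsf23) and 2 overlapped, with a median of -1.16 points. Osbpl5, a lipid-binding protein gene, stood at 9.72% and 18.0% in iKO and 25.3% and 24.7% in control libraries, without overlap (adjusted p 0.481, limma-moderated model). Cdkn1c, the maternally expressed inhibitor of cyclin-dependent kinases, stood between 2.26% and 4.41%, and Phlda2, a brake on placental growth, between 0% and 0.633%. Both are among the 6 lower ones, by only -1.16 and -0.625 points. Of the 9 genes, 5 had no promoter position and were read at their CpG-denser gene end, which need not be the promoter.

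Of 19 homeobox and developmental regulators, 3 were lower in both iKO libraries, 2 were higher and 14 overlapped (background 34.1% lower and 6.58% higher), with a median of 0.383 points, and 15 were under 20% in all libraries. Of the 19 genes, 9 had no promoter position, Hoxc6 and Hoxc13 among them. Their CpG-denser gene end was read instead, which need not be the promoter. Hoxc6 stood at 15.4% and 16.8% in iKO and 7.69% and 8.75% in control libraries, without overlap (adjusted p 0.415, limma-moderated model). Hoxc13 was between 0% and 2.55% in all libraries. Emx2, a forebrain and urogenital regulator, was between 0.889% and 2.19%.

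The chemokine and olfactory receptor genes had high control levels, and their differences are read against the median of -9.75 points of all 119 gene ends of the region over 60%. The 7 tested chemokine receptors of chromosome 9, G protein-coupled receptors that guide leukocytes, had a control median of 80.9% and a median difference of -14.6 points. In 4 of them both iKO libraries were lower, in 1 higher, and in 2 the groups overlapped (background 34.1% lower and 6.58% higher). That background is over all 19873 gene ends, of which 11255 were under 20% in controls, so the counts were not compared at like level. Cxcr6 stood at 61.9% and 76.0% in iKO and 86.5% and 94.7% in control libraries over 10 CpGs, without overlap (adjusted p 0.310, limma-moderated model). In its printed bases the 3 CpGs stood at 53.3% and 66.7% in iKO and 80.0% and 87.5% in control libraries, from 5 to 15 reads. Xcr1 was the one that was higher, with 83.9% and 78.2% in iKO and 67.7% and 78.1% in control libraries.

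The 39 tested olfactory receptors, odour sensors of the nasal epithelium that are silent in stem cells, had a control median of 76.4% and a median difference of -9.81 points. Nearly all of them are among those 119 gene ends, and the median of all 5318 tested gene ends over 60% was -8.96 points. In 19 of the olfactory receptors both iKO libraries were below both controls (background 34.1%), in 1 above (background 6.58%), and in 19 the groups overlapped. These background shares are again over all gene ends and not over those above 60%. Of 6 chromosome maintenance genes 1 was lower, 1 higher and 4 overlapped, with a median of -2.01 points. Rtel1, the helicase that unwinds telomere loops, stood at 4.60% and 2.53% in iKO and 5.15% and 10.6% in control libraries, without overlap (adjusted p 0.672, limma-moderated model). Tcstv1 stood at 78.9% and 84.2% in iKO and 75.0% and 76.7% in control libraries, with iKO the higher. Of 9 channel and receptor genes of neurons 2 were lower, 1 higher and 6 overlapped (median -4.10 points), and Isg15, an interferon-induced gene, and Tmprss2, a serine protease gene on the same list, overlapped. Of the 2 tested keratin genes, Krt18 stood at 16.9% and 11.01% in iKO and 19.3% and 22.8% in control libraries, without overlap. Krt8 stood at 45.0% and 22.0% in iKO and 26.5% and 17.9% in control libraries, with overlap, and its difference of 11.3 points turned to -0.185 without iKO replicate 1.

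**Figure D5:**
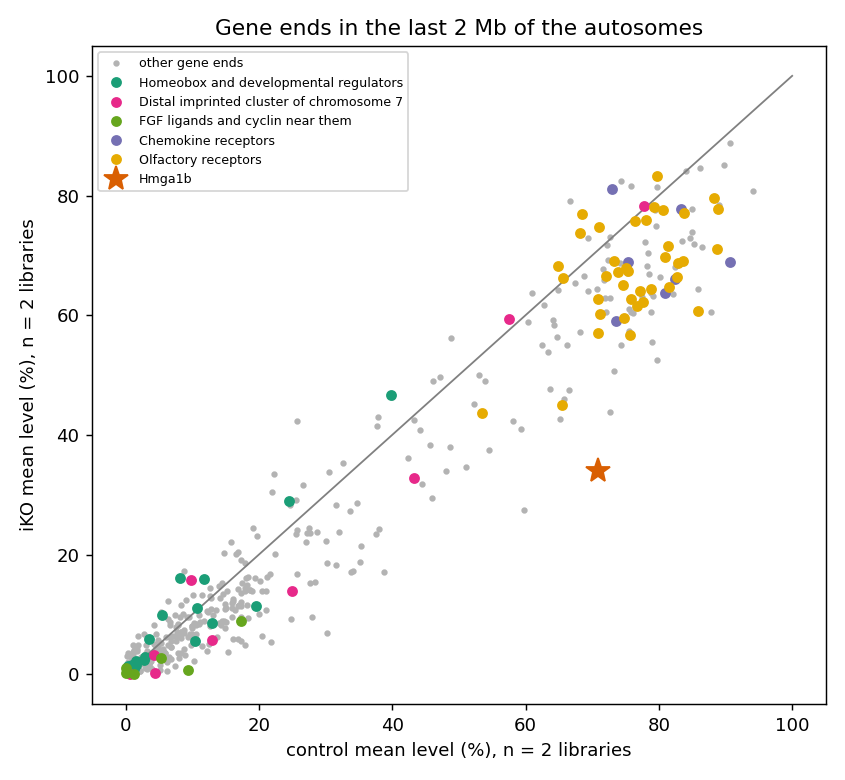
Mean methylation level (%) in iKO against control cells (n = 2 libraries in each group) for the 471 tested gene ends of the last 2 Mb, with 5 gene lists coloured and a line of equal levels. Of the 471, 279 had a control level under 20%, the ends over 60% in controls mostly fall below the line, and Hmga1b is marked with a star.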

How the data were processed

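The authors aligned bisulfite reads to mm10 with BSMAP, and Picard was also used, per the submitters' processing notes; versions and the role of Picard are not given in the sources used here. Each deposited table holds 1 library, matched to its sample by the genotype and replicate in its name. Per the file headers, the deposited values used are read counts per CpG, namely methylated reads and all C or T reads. The deposited expected count, a depth corrected for C/T variants from reads of the other strand, served as an alternative. Of 20677079 listed CpGs, 79.0% had at least 1 read in all 4 libraries; libraries held 56576053 to 68880215 reads over these, a median of 3 to 4 per CpG. Neighbouring CpGs share fragments and reads carry no molecular identifiers, so counts are not independent molecules.

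Python 3.11.15 (NumPy 2.4.6, pandas 2.3.3, PyArrow 21.0.0; matplotlib 3.10.9 for plots) joined the counts by position. Levels were pooled reads per library, compared by two-sided exact permutation over the 6 arrangements of the labels. Windows (at least 10 CpGs) and gene ends (at least 5) were tested in R 4.3.3 with a quasi-binomial logistic model of group, limma 3.58.1 moderation of the Pearson dispersion (floor of 1), an F test and Benjamini-Hochberg adjustment. limma gave all windows the same dispersion (2.29), so a window whose replicates differ strongly can be called. edgeR 4.0.16 and limma on logit levels were alternatives, beside read minima, window sizes, thresholds, the replicate block and leaving out each library. With at least 5 reads per CpG, windows needed only 5 CpGs. Leaving out 1 library leaves 1 in its group, so the spread then comes from the other group and the shared dispersion. On simulated data with 200 of 252641 windows changed, 12% were called at 15 points and 67% at 30 points, with 1 false call. With 200 of 19873 gene ends changed, 1% and 24% were called, with 0 false calls. Far fewer windows were changed there than were called in the data, so these shares are not the sensitivity reached here. No simulated library was shifted as a whole, whereas control replicate 1 minus control replicate 2 had a median of -4.03 points over all windows. The false calls of the simulation are therefore not a measure of those in the data. Promoters and genes came from RefSeq, GRCm38.p6, the assembly mm10 names. Of 21631 protein-coding genes 17274 had a promoter position, and for the others the CpG-denser end was used, which need not be the promoter.

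Windows, gene ends and chromosomes are named by a rule: the 5 largest called decreases and increases with groups apart and at least 30 CpGs (gene ends 10), the window nearest each end, the 3 largest and 3 smallest chromosome differences, and gene lists. Features named outside it, among them the windows of largest increase, which were not called, were chosen after their values were seen. Members and lists were chosen with earlier results of these data known. Whether replicate numbers pair the libraries was checked by the correlation of deviations from group means, which was -0.0422 over the members, so no pairing was assumed.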

Additional observations from a re-analysis of the deposited data

How the results depend on the processing

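The iKO libraries were lower in the last 2 Mb and in the 2 to 10 Mb under all 43 alternatives run on these differences. Leaving out 1 library gave -9.40 to -5.76 points for the last 2 Mb, -9.66 to -6.35 for the 2 to 10 Mb, 0.260 to 0.594 for the gap between them, 0.0751 to 0.212 for the gap at equal CpG number, 0.158 to 0.804 by distance and -2.69 to 0.566 by CpG number. The last of these turned sign without control replicate 2 (0.566), and the gap at equal CpG number turned sign without chromosome 15 (-0.00538), an alternative chosen after seeing the data; the causes were not tested. With at least 5 reads per CpG and 5 CpGs per window, the difference of the last 2 Mb was -4.62 and the gap 4.01. After removing very deep CpGs as well, also chosen after seeing the data, they were -6.60 and 2.05. With all libraries, both iKO libraries lay below both controls in the last 2 Mb, in the 2 to 10 Mb and on 19 of 19 chromosome ends. Leaving out 1 library could therefore not change the sign of these differences or that count. The replicate block leaves the differences as they are. Both kinds of run are among the 43, so their sign was fixed in advance. Some of the 43 took another stretch as the end or the neighbouring region.

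The 633 called windows became 0 with limma on logit levels, 3 with at least 5 reads (1.07% of 280 tested, against 2.06% of all windows), 184 at 15 points (4.89% against 3.69%), 59 at 10 points from the median difference (1.57% against 1.15%), and 47 to 1082 without 1 library. The 1 called gene end became 0 with edgeR (34 at an unadjusted p under 0.05), 0 with limma on logit levels (37), 0 with at least 5 reads (3 tested), and 0 to 6 without 1 library. With edgeR those 34 were 7.22% of the gene ends tested in the last 2 Mb, against 9.52% of all gene ends. With limma on logit levels the 37 were 7.86%, against 8.49% of all gene ends. The replicate numbers gave no sign of pairing (correlation of deviations -0.0163 over all windows). With the replicate block 280 windows (7.44% against 8.24% of all windows) and 3 gene ends (0.637% against 0.699% of all gene ends) were called. The region differences are the same under the block, with a permutation p of 0.5, the smallest that 2 pairs allow. At 3 to 4 reads per CpG, single CpGs and promoters with few CpGs are not resolved.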
